A study of Mus musculus with 89 samples.

Results

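The primitive endoderm markers are 8 genes chosen by name: the TFs Gata4, Gata6, Sox7 and Sox17, the receptor Pdgfra, and the endocytic genes Dab2, Amn and Cubn. All 8 were found, each in 1 row, among 54146 genes measured by RNA-seq in mouse embryonic stem cells (ESCs). The study asked how ESCs respond to the loss of the nuclear receptors Esrrb and Nr5a2, alone or together. Its 20 RNA-seq libraries fall into 8 groups, 4 states in each of 2 media. All groups carry a knockout of endogenous Esrrb and an Esrrb transgene that is on only with doxycycline (Dox), a line called EKOiE. In +E+N, EKOiE cells were kept for 2 days with 1 μg/ml Dox, and in −E the same line was kept for 2 days without it. In −N, EKOiE NrKO cells, in which the exon encoding the DNA-binding domain of Nr5a2 is disrupted on both alleles, were kept with Dox, and in −E−N they were kept without it for 2 days. FCS/LIF, serum with the cytokine LIF, holds 2 libraries per state, and 2i/LIF, a serum-free medium with inhibitors of Mek and Gsk3, holds 3. The NrKO cells are clonal. The study's supplementary methods describe RNA-seq of clone 4 and the labels of these libraries name no clone, so effects of the clone cannot be told apart from those of Nr5a2 loss, nor can the medium be told apart from anything else that differed between the 2 sets of cultures.

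Primitive endoderm separates from the epiblast within the inner cell mass of the blastocyst, and it forms the visceral and parietal endoderm of the yolk sac. Fgf signalling through Mek and Erk favours Gata6 over Nanog in inner cell mass cells, and Gata6 acts upstream of Sox17, Gata4 and Sox7, while Pdgfra marks the precursors on their surface. Dab2 is an adaptor for clathrin-mediated endocytosis needed for the endoderm to form an outer layer, and amnionless (Amn) carries cubilin (Cubn), a large multiligand receptor of visceral endoderm and kidney, to the apical membrane. Undifferentiated ESC cultures usually hold these transcripts at a low level, and in serum a small share of cells can drift towards this lineage.

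The libraries held 36514172 to 45443379 counts in FCS/LIF and 26653035 to 32526534 in 2i/LIF, and the 8 markers took at most 0.00846% of a library. Levels are given as CPM, counts scaled to 1000000 per library, on one scale for all 20 libraries, and as TPM, which is also corrected for transcript length, where genes are compared with each other. A gene was called when edgeR's quasi-likelihood test, fitted across all tested genes, gave a Benjamini-Hochberg adjusted p below 0.01 and a fold above 1.5. The targeted genes behaved unevenly as a check of the labels. In FCS/LIF, Esrrb was at 271 and 353 CPM in +E+N and at 74.2 and 65.1 CPM in −E. In 2i/LIF it was at 515, 609 and 605 CPM in +E+N and at 441, 434 and 380 CPM in −E, a log2 change of −0.46 ± 0.16 (SE, adjusted p = 0.116) that was not called, although the groups did not overlap. The table has 1 total per gene, so transcripts of the transgene and of the disrupted locus cannot be separated. For the same reason the total of Nr5a2, 63.9 to 78.4 CPM in −N and 61.8 to 80.2 CPM in +E+N in 2i/LIF, does not test the loss of 1 exon. In FCS/LIF, Nr5a2 was also lower in −E, at 19.67 and 19.23 CPM against 39.85 and 36.11 CPM in +E+N. That log2 change was −0.98 ± 0.09 (edgeR, adjusted p = 0.000133), so −E there also held less Nr5a2 RNA. In 2i/LIF the change in −E was −0.59 ± 0.21 (adjusted p = 0.129) and not called. The study checked both losses by other means. It reports that binding of Esrrb to DNA in 2i/LIF was ablated by 2 days without Dox. Its qPCR over the deleted part of Nr5a2 found no wild-type transcript in the knockout clones.

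The markers were weakly expressed in control cells of both media. In +E+N in FCS/LIF their summed level was 13.0 and 18.4 TPM, beside 2540 to 2650 TPM for 8 pluripotency genes. Dab2 was the highest of them, at 4.33 and 5.69 TPM, and Sox7 the lowest, at 0.52 TPM in both libraries. The 6 genes between them, from Sox17 at 1.72 and 2.63 TPM down to Cubn at 0.84 and 1.29 TPM, overlapped with their neighbours in the order. In bulk RNA, fewer cells that express a marker and less RNA per cell cannot be told apart.

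Without any loss of Esrrb or Nr5a2, all 8 markers were lower in 2i/LIF than in FCS/LIF. Over all 16147 genes tested across the 20 libraries, 34.7% were called between the 2 media and 17.5% were called lower in 2i/LIF, against 8 of 8 markers. Gata6, Sox7, Amn and Cubn passed the count minimum only through FCS/LIF groups, which favoured this direction, and without the minimum all 8 were called lower too. Cubn differed most. It was at 8.37 and 12.2 CPM in FCS/LIF and at 0.257, 0.149 and 0.0697 CPM in 2i/LIF, where the 3 libraries held only 8, 4 and 2 reads, a log2 difference of −5.97 ± 0.43 (SE, adjusted p = 4.82e-09).
Dab2 was at 11.6 and 13.8 CPM against 3.08, 0.818 and 2.23 CPM (log2 difference −2.62 ± 0.30, adjusted p = 1.2e-06). Pdgfra was at 6.43 and 7.25 CPM against 1.29, 1.08 and 1.50 CPM (−2.41 ± 0.25, adjusted p = 4.01e-07). For all 3 of these genes the lowest FCS/LIF library lay above the highest 2i/LIF library.

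The 4 TFs were also lower in 2i/LIF, and 3 of them had uneven control libraries there. Gata4, the TF with the smallest difference, was at 2.75 and 3.65 CPM in FCS/LIF and at 0.963, 1.34 and 1.15 CPM in 2i/LIF (log2 difference −1.48 ± 0.31, adjusted p = 0.000525). Gata6 was at 3.50 and 6.38 CPM in FCS/LIF and at 0.450, 0.781 and 2.16 CPM in 2i/LIF (−2.13 ± 0.48, adjusted p = 0.000978). The third 2i/LIF control library was the highest of its group for Gata6, with 62 reads against 14 and 21, for Sox7, with 13 against 1 and 2, and for Sox17, with 19 against 5 and 7. Even so, Sox7 (−2.88 ± 0.63, adjusted p = 0.000867) and Sox17 (−2.26 ± 0.53, adjusted p = 0.00156) were called lower, as was Amn (−1.86 ± 0.47, adjusted p = 0.00235). This count rested partly on 1 control library of FCS/LIF: without its replicate 2, 4 of 8 markers were called, and Gata4, Gata6, Sox17 and Amn missed the threshold at unchanged direction.

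Markers of some other cell types were also lower in +E+N in 2i/LIF while others were higher, and their part in the difference was not tested. The endothelial list summed to 9.2 and 15.2 TPM in FCS/LIF and 1.52 to 1.94 TPM in 2i/LIF, with 2 of 3 tested genes lower, none higher and Emcn at 0 in both. The trophectoderm list summed to 262 and 315 TPM against 40.5 to 49.4 TPM, with 3 of 6 lower, the keratin genes Krt8 and Krt18 among them. The fibroblast list summed to 5.16 and 5.61 TPM against 0.81 to 2.65 TPM, with 2 of 5 lower. Of the basement membrane genes 5 of 8 were lower and 1 higher, and of the parietal endoderm genes 3 of 6 were lower. The primitive streak and definitive endoderm list went the other way, from 2.41 and 3.96 TPM in FCS/LIF to 15.1 to 17.6 TPM in 2i/LIF. There 2 of 6 tested genes were higher and none lower (median log2 difference 1.15). The visceral endoderm list summed to 6.76 and 8.48 TPM against 11.7 to 13.8 TPM, with 1 of 6 tested genes higher and 2 lower (median 0.54). The median log2 differences of the tested genes were −2.86 for endothelium, −2.68 for trophectoderm, −2.24 for fibroblasts, −1.34 for basement membrane and −0.98 for parietal endoderm, beside −2.33 for the 8 markers and 0.01 over all genes.

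**Figure D1:**
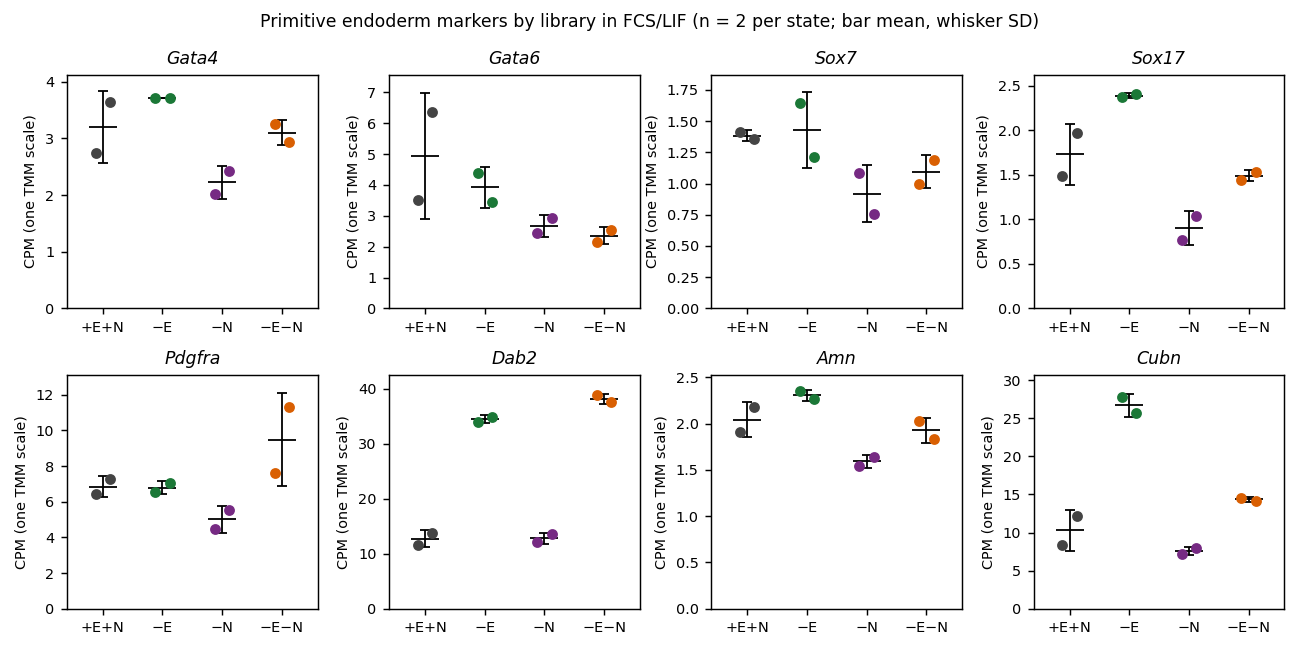
Levels of the 8 markers in FCS/LIF in CPM (linear axes from 0, a separate scale for each gene), with 1 point per library, the mean as a bar and the SD as a whisker (n = 2 per state). Dab2 was near 13 CPM in +E+N and −N and above 33 CPM in −E and −E−N, whereas Cubn was highest in −E and intermediate in −E−N.

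In FCS/LIF, the endocytic genes Dab2 and Cubn rose when Esrrb was lost, and none of the lineage TFs was called. These 2 of the 8 markers were called in −E against +E+N, both higher, beside 5.76% of all 15636 genes tested in this medium. Dab2 went from 11.6 and 13.8 CPM in +E+N to 34.0 and 35.0 CPM in −E, a log2 change of 1.42 ± 0.10 (SE, adjusted p = 4.7e-05). Cubn went from 8.37 and 12.2 CPM to 27.7 and 25.6 CPM (1.35 ± 0.16, adjusted p = 0.000628). In both cases the −E libraries lay above every control library, and both calls held when any of the 8 FCS/LIF libraries was left out. Amn, the partner that brings cubilin to the membrane, was at 1.91 and 2.18 CPM in +E+N and 2.35 and 2.26 CPM in −E, a log2 change of 0.15 ± 0.18 (adjusted p = 0.6). The other 5 markers lay between −0.36 ± 0.27 for Gata6 and 0.44 ± 0.22 for Sox17, which was at 1.49 and 1.97 CPM in +E+N and 2.37 and 2.41 CPM in −E (adjusted p = 0.203). Their smallest adjusted p was that of Sox17. Over the 8 markers the median log2 change was 0.17, beside −0.003 over all genes.

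The stretches upstream of the transcription starts of Dab2 and Cubn are shown because these are the 2 markers that rose together, and that of Pdgfra because it was called in −E−N in 2i/LIF. They are the 250 bases before the start, read 5′ to 3′ on the strand of the gene, from RefSeq entries on GRCm38.p6. Of the 8 markers, 4 matched an entry that is used here: Amn, Cubn, Dab2 and Pdgfra, with 2 starts for Dab2. Gata4, Gata6, Sox7 and Sox17 are named only. Capitals mark a GATA motif, TGATAA.
Dab2, upstream start, chr15:6299539-6299788 (+): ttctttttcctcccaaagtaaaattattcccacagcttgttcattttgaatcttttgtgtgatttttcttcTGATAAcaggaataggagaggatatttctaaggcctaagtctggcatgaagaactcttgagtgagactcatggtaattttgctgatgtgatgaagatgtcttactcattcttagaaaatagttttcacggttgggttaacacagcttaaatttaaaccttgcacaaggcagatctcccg
Dab2, downstream start, chr15:6386498-6386747 (+): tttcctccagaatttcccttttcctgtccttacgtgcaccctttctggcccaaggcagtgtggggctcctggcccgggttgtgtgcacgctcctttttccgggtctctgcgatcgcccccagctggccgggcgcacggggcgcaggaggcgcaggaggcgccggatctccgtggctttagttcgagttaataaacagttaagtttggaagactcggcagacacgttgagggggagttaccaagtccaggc
Cubn, chr2:13491877-13492126 (−): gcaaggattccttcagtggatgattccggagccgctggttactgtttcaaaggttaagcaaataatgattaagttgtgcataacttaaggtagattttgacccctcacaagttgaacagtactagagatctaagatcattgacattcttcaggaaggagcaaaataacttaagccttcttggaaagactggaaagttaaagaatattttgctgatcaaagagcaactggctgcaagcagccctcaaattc
Pdgfra, chr5:75152001-75152250 (+): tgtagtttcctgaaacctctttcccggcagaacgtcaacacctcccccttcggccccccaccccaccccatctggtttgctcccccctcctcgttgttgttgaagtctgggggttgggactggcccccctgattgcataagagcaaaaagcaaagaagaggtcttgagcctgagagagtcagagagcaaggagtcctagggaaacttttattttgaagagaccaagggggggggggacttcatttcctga

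Both strands of each stretch were searched for the 9-base sequence TCAAGGTCA and its variant TCAAGGCCA, which Esrrb and Nr5a2 are known to bind, for their 7-base cores AAGGTCA and AAGGCCA, which lie within them, and for the GATA motifs AGATAA and TGATAA. None of the 5 marker stretches held either 9-base sequence, which occur in 0.387% and 0.511% of the 32851 stretches in the table. None held AAGGTCA or AAGGCCA either, beside 4.08% and 5.24% of all stretches, and none held AGATAA, beside 9.99%. The stretch before the upstream start of Dab2 held TGATAA, a sequence found in 7.94% of all stretches, with its first base 179 bases before the start. The stretches also differ in base composition: G and C make up 36.8% of the bases before the upstream start of Dab2, 60.0% before its downstream start, 39.6% for Cubn, 54.4% for Pdgfra and 61.2% for Amn.

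In FCS/LIF, loss of Nr5a2 alone gave no call among the 8 markers, in a comparison that called only 0.173% of all genes. All 8 log2 changes were below 0, from −0.01 ± 0.10 for Dab2 to −0.95 ± 0.24 for Sox17. Of the 8, 6 had an unadjusted p below 0.05, beside 2550 of all 15636 genes. DESeq2 also called 0 of 8. Sox17 was at 1.49 and 1.97 CPM in +E+N and at 0.770 and 1.04 CPM in −N (adjusted p = 0.0903), so the 2 groups did not overlap. Gata6 was at 3.50 and 6.38 CPM in +E+N and 2.43 and 2.92 CPM in −N, a log2 change of −0.91 ± 0.28 (adjusted p = 0.146). Gata4, which was at 2.75 and 3.65 CPM in +E+N, was at 2.02 and 2.42 CPM in −N (−0.54 ± 0.20, adjusted p = 0.209). Dab2, in contrast to its rise in −E, was at 12.1 and 13.5 CPM in −N, between the control libraries at 11.6 and 13.8 CPM. The comparisons of −E, −N and −E−N share the control libraries, so a high control library lowers all of them together, and replicate 2 was the higher control library for 7 of the 8 markers.

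With both factors lost in FCS/LIF, Dab2 was again higher, and it was the only 1 of the 8 markers called, beside 18.8% of all genes. It reached 38.9 and 37.6 CPM, a log2 change of 1.57 ± 0.10 (adjusted p = 8.04e-06) against +E+N. Cubn was at 14.6 and 14.1 CPM in −E−N, above both control libraries but below both −E libraries (0.46 ± 0.16, adjusted p = 0.0405). Gata6, the most upstream TF of the lineage, was at 2.16 and 2.55 CPM in −E−N against 3.50 and 6.38 CPM in +E+N, a log2 change of −1.09 ± 0.29 (adjusted p = 0.0124) just outside the threshold. DESeq2 called it (adjusted p = 0.00159), and it was also called without control replicate 1. Cubn was called without control replicate 2 (log2 change 0.76, adjusted p = 0.00232). Gata4 was at 3.26 and 2.94 CPM (−0.07 ± 0.19), Sox17 at 1.45 and 1.53 CPM (−0.24 ± 0.23) and Sox7 at 0.999 and 1.19 CPM (−0.35 ± 0.27), each with an adjusted p of at least 0.305. Pdgfra was at 7.63 and 11.3 CPM, with 1 library well above the other, against 6.43 and 7.25 CPM (0.45 ± 0.20, adjusted p = 0.0896). The median over the 8 markers was −0.09, beside 0.00 over all genes.

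Other comparisons in FCS/LIF share either the Nr5a2 disruption or the absence of Dox. The total of Esrrb was not constant between −E and −E−N: it changed by −1.21 ± 0.14 on the log2 scale (edgeR, adjusted p = 0.000941). Changes between these 2 states therefore cannot be assigned to Nr5a2 alone. Within Nr5a2-null cells, −E−N against −N, 3 of the 8 markers rose, beside 10.1% of all genes. They were Dab2 (log2 change 1.58 ± 0.10, adjusted p = 1.67e-05), Cubn, from 7.17 and 7.96 CPM to 14.6 and 14.1 CPM (0.92 ± 0.16, adjusted p = 0.00321), and Pdgfra, from 4.47 and 5.54 CPM to 7.63 and 11.3 CPM (0.92 ± 0.20, adjusted p = 0.00875). The calls of Cubn and Pdgfra were less secure than that of Dab2, since the call of Pdgfra was lost in 5 of the 8 fits that left 1 library out (log2 change 0.58 to 1.15, highest adjusted p = 0.0739, without either −E or either −N library or −E−N replicate 2). That of Cubn was lost in 3 of the 8 (0.85 to 1.01, highest adjusted p = 0.0241, without −N replicate 1 or either −E−N library), and limma on log2(TPM + 1) called neither. Within Esrrb-depleted cells, −E−N against −E, only Cubn was called of the 8, beside 5.05% of all genes. It fell by 0.90 on the log2 scale (SE 0.15, adjusted p = 0.00514), and the call was lost when any 1 of the 4 libraries compared was left out. Dab2 stood at 34.0 and 35.0 CPM in −E and 38.9 and 37.6 CPM in −E−N (0.15 ± 0.09, adjusted p = 0.282).
The departure from additivity, the −E−N change minus the sum of the changes in −E and −N, was called for 0 of 8 markers and for 0.032% of all genes. Pdgfra, the only 1 with an unadjusted p below 0.05 (beside 1384 of all 15636 genes), had a departure of 0.95 ± 0.28 (adjusted p = 0.351). DESeq2 called none of the 8.

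**Figure D2:**
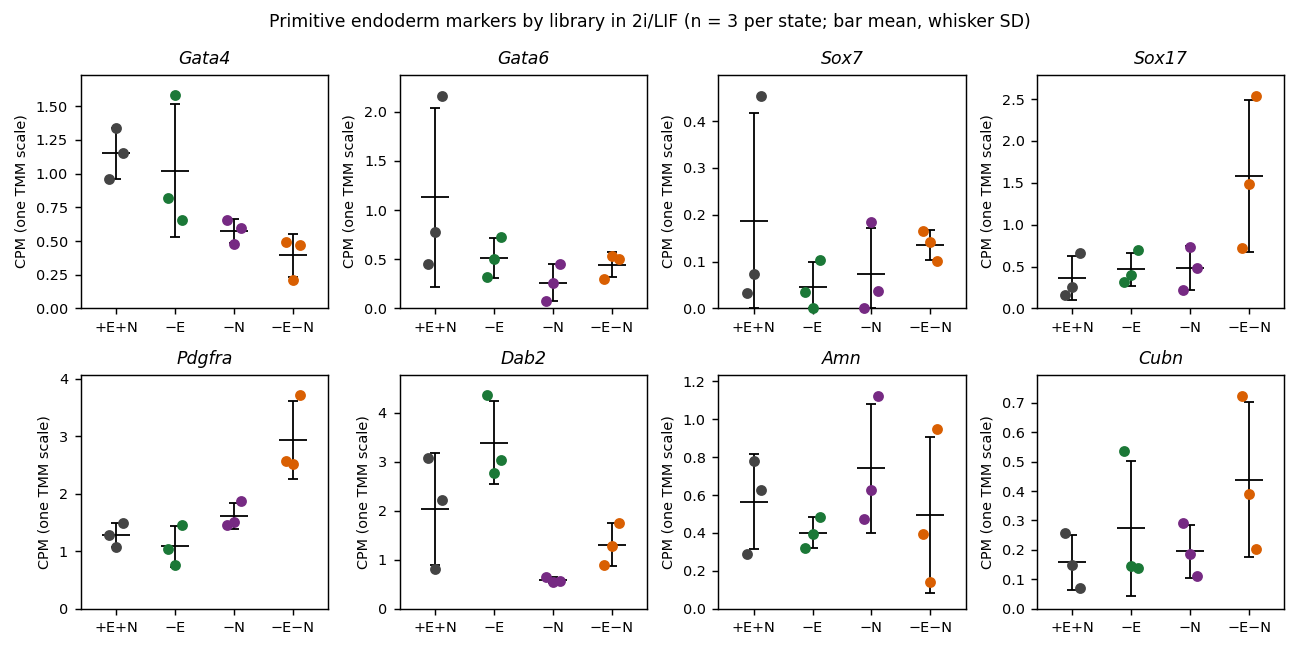
Levels of the 8 markers in 2i/LIF in CPM (linear axes from 0, a separate scale for each gene), with 1 point per library, the mean as a bar and the SD as a whisker that stops at 0 (n = 3 per state). In −E−N, Pdgfra and Sox17 were above, and Gata4 below, every control library, while Sox7 and Cubn stayed below 1 CPM throughout.

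In 2i/LIF, reads were so few that 4 of the 8 markers could be tested. Gata6, Sox7, Amn and Cubn did not reach 20 counts in all 3 libraries of any state. Sox7 had 3 reads or fewer in 8 of the 12 libraries, with a median of 2.5 and a maximum of 13, and Cubn had 2 to 22 reads. Gata6 had 2 to 62 reads and Amn 4 to 30. These 4 genes were fitted only without the count minimum, where none was called between states. The smallest adjusted p among them was that of Gata6, in −N against +E+N (log2 change −2.10 ± 0.56, adjusted p = 0.0187). Gata4 passed only through +E+N and Sox17 only through −E−N, the groups in which each was highest, so that a lower value of Gata4 and a higher value of Sox17 there were favoured by the count minimum. Their values are given as a description of single genes. Pdgfra and Dab2 were the other 2 tested.

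Loss of Esrrb in 2i/LIF called 0 of the 4 tested markers, beside 1.55% of all 14355 genes tested in this medium, and none had an unadjusted p below 0.05. DESeq2 called none of them. Dab2, which rose in FCS/LIF, was at 3.08, 0.818 and 2.23 CPM in +E+N and 4.36, 2.77 and 3.05 CPM in −E, a log2 change of 0.73 ± 0.39 (adjusted p = 0.327), with overlapping groups. Gata4 ranged from 0.658 to 1.58 CPM in −E and from 0.963 to 1.34 CPM in +E+N (−0.17 ± 0.36).

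Loss of Nr5a2 in 2i/LIF also gave 0 calls among the 4 tested, beside 3.65% of all genes. An unadjusted p below 0.05 was reached by 2 markers, beside 3594 of all 14355 genes. Dab2 was at 0.654, 0.554 and 0.562 CPM in −N, below every control library, a log2 change of −1.80 ± 0.44 (adjusted p = 0.021). The lowest of the control libraries, replicate 2 at 0.818 CPM, lay near that range, and without it the change was −2.17 and called (adjusted p = 0.00423). DESeq2 called it with all libraries (adjusted p = 0.00209), giving 1 of the 4. Gata4 was at 0.654, 0.480 and 0.599 CPM in −N against 0.963, 1.34 and 1.15 CPM, without overlap (−0.99 ± 0.38, adjusted p = 0.121). Pdgfra was at 1.45, 1.51 and 1.87 CPM against 1.29, 1.08 and 1.50 CPM (0.32 ± 0.28, adjusted p = 0.543).

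With both factors lost in 2i/LIF, Pdgfra rose, in a comparison that called 18.6% of all genes. Pdgfra went from 1.29, 1.08 and 1.50 CPM to 2.56, 2.51 and 3.72 CPM (log2 change 1.20 ± 0.27, adjusted p = 0.00371). Gata4, tested only through its level in +E+N, was at 0.963, 1.34 and 1.15 CPM there and at 0.493, 0.212 and 0.473 CPM in −E−N, which are 15, 6 and 14 reads (−1.52 ± 0.39). It passed the threshold (adjusted p = 0.00819), in a direction that the count minimum favoured, and also did so without that minimum (adjusted p = 0.00762). For neither gene did the groups overlap. Sox17 was at 0.161, 0.260 and 0.662 CPM in +E+N and 0.723, 1.48 and 2.54 CPM in −E−N, also without overlap, a log2 difference of 2.14 ± 0.59 in the direction that the count minimum favoured (adjusted p = 0.0114). Without the minimum Sox17 was called (adjusted p = 0.00208), and DESeq2 called it with the minimum in place (adjusted p = 0.0046). It was also called in 3 of the 12 edgeR fits that left 1 library out. In TPM, Sox17 was at 0.8, 1.54 and 3.28 in −E−N in 2i/LIF and at 1.72 and 2.63 in the FCS/LIF controls, so its level in −E−N overlapped with theirs. Dab2 was at 0.888, 1.27 and 1.76 CPM (−0.64 ± 0.41, adjusted p = 0.232). These calls were not stable to single libraries: that of Gata4 held in 3 and that of Pdgfra in 9 of the 12 fits that left 1 library out, and without +E+N replicate 1 or 2, or −E−N replicate 3, no marker was called.

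Within Nr5a2-null cells in 2i/LIF, −E−N against −N, 0 of the 4 tested markers were called, beside 6.76% of all genes, and DESeq2 called none. An unadjusted p below 0.05 was reached by 3 of the 4, beside 4687 of all 14355 genes. Sox17 was at 0.218, 0.738 and 0.487 CPM in −N, and differed by 1.73 ± 0.57 (adjusted p = 0.0511), Dab2 by 1.16 ± 0.45 (adjusted p = 0.0915) and Pdgfra by 0.88 ± 0.27 (adjusted p = 0.0375).
Within Esrrb-depleted cells, −E−N against −E, 1 of the 4 was called, beside 13.1% of all genes. Here too the total of Esrrb was lower in −E−N (log2 change −1.515 ± 0.162, edgeR, adjusted p = 2.87e-05). Pdgfra rose from 1.04, 0.755 and 1.46 CPM to 2.56, 2.51 and 3.72 CPM (1.45 ± 0.28, adjusted p = 0.00184), and this call held in all 12 fits that left 1 library out and in DESeq2. It was lost in limma on log2(TPM + 1), where the change was 0.34 (adjusted p = 0.0123). Dab2 differed by −1.36 ± 0.40 (adjusted p = 0.0206), called by DESeq2 (adjusted p = 0.00769), and Gata4 by −1.35 ± 0.40 (adjusted p = 0.0208). The departure from additivity in 2i/LIF was called for 0 of the 4 and for 0.307% of all genes. It was 1.13 ± 0.39 for Pdgfra (adjusted p = 0.205), the only 1 with an unadjusted p below 0.05, beside 1962 of all 14355 genes. DESeq2 called none of the 4.

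**Figure D3:**
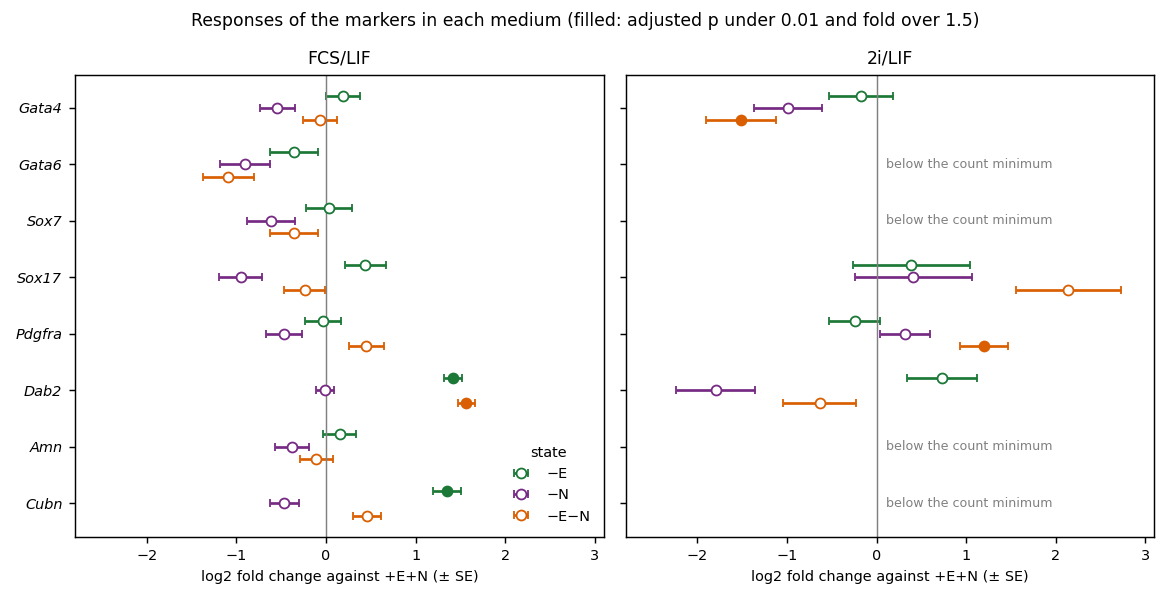
Log2 fold changes (± SE) of the 8 markers in −E, −N and −E−N against +E+N, in FCS/LIF on the left and 2i/LIF on the right, with filled points for called changes. Filled points are Dab2 and Cubn in −E and Dab2 in −E−N in FCS/LIF, and Pdgfra and Gata4 in −E−N in 2i/LIF, where 4 genes were below the count minimum and Gata4 passed it only through +E+N.

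The response of Dab2 to the loss of both factors differed between the media. In a fit of all 20 libraries, the −E−N response in 2i/LIF minus that in FCS/LIF was −2.25 ± 0.45 on the log2 scale (adjusted p = 0.00157), and Dab2 was the only 1 of the 8 markers called, beside 13.2% of all genes. It was called in 19 of the 20 fits that left 1 library out, the exception being FCS/LIF +E+N replicate 1 (−2.13, adjusted p = 0.0106). Sox17 had a difference of 2.35 ± 0.73 (adjusted p = 0.027) and Gata4 one of −1.48 ± 0.47 (adjusted p = 0.0294), neither called. Differences in the −E response were called for 0 of 8 markers and 1.06% of all genes, and none had an unadjusted p below 0.05. All 8 estimates were below 0, and they were imprecise for weak genes: that of Cubn was −0.63 ± 0.74 and that of Sox7 −1.94 ± 1.14. DESeq2 called none, and limma on log2(TPM + 1), where a change of a weak gene is understated, called Cubn. A difference between media in the Cubn response was therefore not established by the count test. Differences in the −N response were called for 0 of 8 and 0.743% of all genes, with 2 of the 8 at an unadjusted p below 0.05, beside 2476 of all 16147 genes. Among the 8, Dab2 had the smallest adjusted p (−1.81 ± 0.49, adjusted p = 0.0567), and DESeq2 called it (adjusted p = 0.00788).

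**Figure D4:**
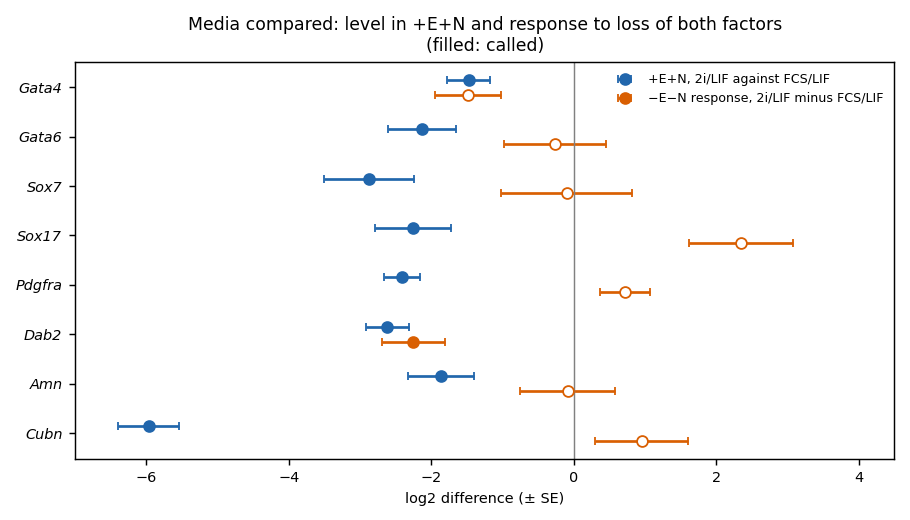
Log2 differences (± SE) between media for the 8 markers, 2i/LIF against FCS/LIF: the level in +E+N in blue and the −E−N response in orange, with filled points for called differences. All 8 levels lie below 0, down to −5.97 for Cubn, and Dab2 is the only filled point among the responses, at −2.25.

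Genes that share a family, a pathway or a lineage with the markers were counted in −E−N against +E+N, in lists drawn up by role. Over all genes, 18.8% were called in FCS/LIF and 18.6% in 2i/LIF. Of these, 1934 of 15636 tested genes rose in FCS/LIF and 1300 of 14355 in 2i/LIF. Among the GATA and SoxF relatives, Gata2 and Gata3, which act in trophoblast and blood, rose in both media. Gata2 changed by 2.64 ± 0.19 in FCS/LIF (adjusted p = 1.49e-05) and 4.86 ± 0.41 in 2i/LIF (adjusted p = 2.3e-06), and Gata1 fell by 1.97 in FCS/LIF. In all, 2 of 4 tested rose in FCS/LIF and 2 of 2 in 2i/LIF, whereas Gata4 was called higher in neither medium, and Gata6 not in FCS/LIF and not tested in 2i/LIF. Of the PDGF genes, 3 of 5 tested rose in FCS/LIF, with the ligands Pdgfb (1.33 ± 0.21) and Pdgfa (0.79 ± 0.11) and the second receptor Pdgfrb (1.08 ± 0.20), and 1 fell. In 2i/LIF, where the receptor Pdgfra rose, 0 of 4 were called. Of the partners of cubilin, the folate receptor Folr1 rose in FCS/LIF (0.89 ± 0.08) and Fcgrt fell, 2 of 4 called, and in 2i/LIF 0 of 4 were called.

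Of the 4 genes for Fgf inputs, the ligand Fgf4, which ESCs secrete, fell by 1.82 in FCS/LIF and fell by 2.40 in 2i/LIF on the log2 scale. The receptor Fgfr2 rose by 3.55 ± 0.35 in 2i/LIF. Basement membrane genes, which endoderm secretes in bulk, changed in both directions: 3 of 8 rose and 1 fell in FCS/LIF, and 1 rose and 3 fell in 2i/LIF. Sparc changed by 0.80 ± 0.10 in FCS/LIF and −1.54 ± 0.16 in 2i/LIF, and the difference between these responses was called (−2.37 ± 0.23, adjusted p = 2.83e-06). The laminin gene Lama1 fell in both media (−0.98 ± 0.09 and −4.85 ± 0.28). Of 11 visceral endoderm genes, 1 of 6 tested rose in FCS/LIF, Apob, and in 2i/LIF 2 of 4 rose, Ihh and Foxa2, and Hhex fell. Ttr, an abundant transcript of visceral endoderm, had 0 reads in both libraries of 3 FCS/LIF states and in all 12 libraries of 2i/LIF. Parietal endoderm genes rose for 4 of 6 tested in FCS/LIF, among them Plat (1.96 ± 0.22) and Thbd (1.67 ± 0.26), and for 3 of 5 in 2i/LIF, among them Snai1 (2.17 ± 0.24), and Fst rose in both.

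Genes of other lineages were counted in the same way, beside the same shares of 18.8% and 18.6% over all genes. Primitive streak and definitive endoderm genes rose for 3 of 5 tested in FCS/LIF and for 1 of 5 in 2i/LIF, where 2 fell, with T, a streak TF, higher in both. In the list for endothelium, which also uses Sox7 and Sox17, Cdh5 rose in FCS/LIF (2.24 ± 0.35, 1 of 3 tested) and Kdr fell in 2i/LIF (−3.56 ± 0.50, 1 of 2), with Emcn at 0 reads in all 20 libraries. Fibroblast genes, which share Pdgfra, rose for 4 of 5 in FCS/LIF, at low levels such as 0.573 CPM for Dcn in −E−N, and in 2i/LIF 1 of 3 rose and 1 fell. Trophectoderm genes rose for 5 of 6 in FCS/LIF and 3 of 4 in 2i/LIF, with no fall. All 8 pluripotency genes fell in FCS/LIF and 6 of 8 in 2i/LIF. The tested trophectoderm genes had median log2 changes of 2.10 (FCS/LIF) and 4.20 (2i/LIF), the parietal endoderm genes of 1.31 and 2.17, and the pluripotency genes of −1.44 and −1.24, against 0.00 and 0.01 over all genes and −0.09 for the markers in FCS/LIF. No median is given for the markers in 2i/LIF, where 2 of the 4 tested passed through the group in which they were highest. The other lists also hold genes too weak in +E+N to reach the count minimum there, so that it favoured a rise. Among them were Pth1r at 0.266 CPM and Ihh at 0.0553 CPM in +E+N in 2i/LIF, and Elf5 at 0.278 CPM in FCS/LIF. The counts and medians of these lists are therefore no even measure against those of the markers.

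**Figure D5:**
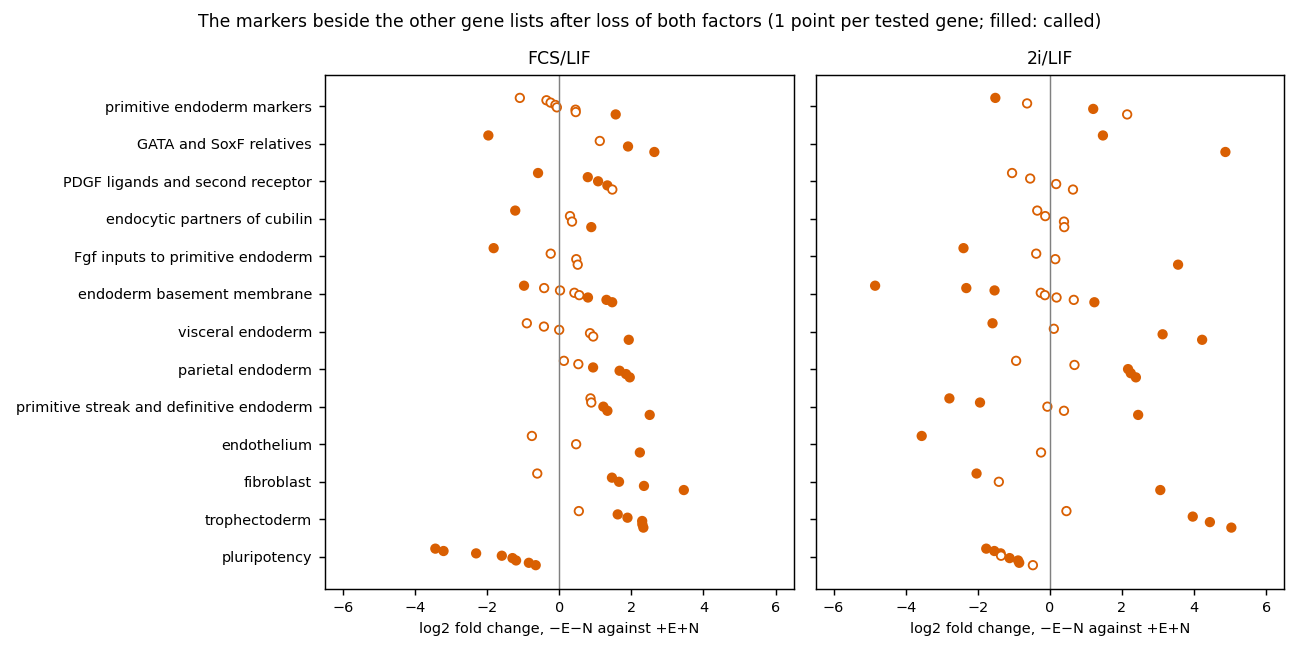
Log2 fold changes in −E−N against +E+N for each tested gene of 13 lists, in FCS/LIF on the left and 2i/LIF on the right, with filled points for called genes (the vertical offset within a list only separates points). In FCS/LIF the primitive endoderm markers spread on both sides of 0. No trophectoderm point lies below 0 and no pluripotency point above it in either medium. Only 4 markers are shown in 2i/LIF, where the count minimum favoured a lower Gata4 and a higher Sox17, so their spread there is not compared with the other lists.

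Signs of some other cell types moved together with the rise of Dab2 in FCS/LIF, and their part in it was not tested. In −E, 1 of 6 tested parietal endoderm genes, 1 of 3 endothelial and 0 of 6 trophectoderm genes were called, beside 5.76% of all genes. The summed level of the parietal endoderm list was 13.7 and 17.4 TPM in +E+N, 26.3 and 30.5 TPM in −E and 32.8 and 35.9 TPM in −E−N. The endothelial list summed to 9.2 and 15.2 TPM in +E+N, 24.2 and 24.7 TPM in −E and 25.3 and 25.8 TPM in −E−N. The visceral endoderm list stayed nearly level, at 6.76 and 8.48 TPM in +E+N, 7.66 and 7.96 TPM in −E and 7.7 and 8.1 TPM in −E−N. The fibroblast list was at 5.16 and 5.61 TPM, 5.7 and 6.87 TPM and 5.49 and 6.04 TPM in the same states. The trophectoderm list summed to 262 and 315 TPM in +E+N, 389 and 532 TPM in −E, 544 and 775 TPM in −N and 1150 and 1770 TPM in −E−N. In −N, too, 0 of its 6 genes were called. In 2i/LIF the trophectoderm list summed to 40.5 to 49.4 TPM in +E+N and to 210 to 341 TPM in −E−N. The summed level of the 8 markers themselves was 27.4 and 28.9 TPM in −E and 27.3 and 29.9 TPM in −E−N in FCS/LIF, of which Dab2 made up 14.8 and 15.1 TPM in −E, and in 2i/LIF it ranged from 1.29 TPM in −N to 6.04 TPM in −E−N.

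The order of the 8 groups by level differed between markers. Dab2 was highest in −E−N in FCS/LIF, followed by −E, and each of these steps was free of overlap, while −N and +E+N in FCS/LIF overlapped. Cubn followed the order −E, −E−N, +E+N, −N in FCS/LIF with no overlap between neighbours, and its 4 groups in 2i/LIF overlapped. Sox17 was the only marker whose −E−N level in 2i/LIF stood among the FCS/LIF groups, overlapping with +E+N above it and −E−N below it. Gata6 had the least resolved order, with 6 of 7 neighbouring pairs of groups overlapping, and the separated pair was −E above −N in FCS/LIF. Across the 8 FCS/LIF libraries, log2 CPM of Gata4 varied with that of Sox17 (Pearson r = 0.96) and Amn (r = 0.97), whereas that of Gata6 did not vary with that of Dab2 (r = −0.24). Cubn, with 298 to 1182 reads there, varied with Gata4 (r = 0.85), Sox17 (r = 0.87), Amn (r = 0.86) and Dab2 (r = 0.82). These are descriptions over libraries that share 4 groups, and Gata4, Sox17 and Amn hold few reads.

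The genes most like each marker over the 20 libraries, by Pearson correlation of log2 CPM were sought among 13011 genes averaging 50 counts or more, and these correlations include the step between media. For Dab2 they were Unc45b (r = 0.98, and 0.93 within the 8 FCS/LIF libraries) and Arhgap8 (0.98 and 0.85). For Cubn they were Gle1 (0.99 and 0.67) and Nup50 (0.98 and 0.74). For Pdgfra they were Cep126 (0.98 and 0.60) and Flnc (0.97 and 0.60). For Amn they were Irak1bp1 (0.95 and 0.38) and Caps2 (0.94 and 0.94). Among the TFs, Gata4 was most like Adam22 (0.95 and 0.91) and Fsd1 (0.95, but −0.43 within FCS/LIF), Gata6 most like Trp53i11 (0.96 and 0.50) and Gm37697 (0.94 and 0.75), Sox7 most like Dgkk (0.94 and 0.32) and Xk (0.93 and −0.20), and Sox17 most like P4ha2 (0.90 and 0.68) and St6gal1 (0.89 and 0.27).

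On mm10, with GENCODE vM21 models, all 8 markers are protein-coding genes. Dab2 spans chr15:6299788-6440712 (+), Cubn chr2:13276338-13491813 (−), Amn chr12:111271095-111276426 (+), Pdgfra chr5:75152292-75198215 (+), Sox17 chr1:4490931-4497354 (−), Sox7 chr14:63943673-63950732 (+) and Gata4 chr14:63198922-63271692 (−). Sox17, Cubn, Pdgfra, Dab2 and Gata6 overlap annotated genes on the opposite strand. The libraries were stranded, but the strand setting used in counting is not given in the sources used here, so reads of such partners cannot be set aside for these 5 markers.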

How the data were processed

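Poly-A RNA of 20 cultures (8 in FCS/LIF, 12 in 2i/LIF) was sequenced as stranded paired-end libraries. The authors aligned reads to mm10 with STAR and estimated counts per gene with RSEM, and the deposited expected counts are already rounded to whole numbers. The deposited TPM values are the authors' RSEM estimates, normalised for length and depth. The 92 spike-in rows held 0 counts and were left out. The 69 ChIP-seq samples were not analysed here.

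Counts were fitted with edgeR 4.0.16 (TMM, quasi-likelihood test, R 4.3.3), the 4 states of a medium together, keeping genes that reached 20 counts in every replicate of some state. Media were compared in a fit of all 20 libraries. Genes were called at an adjusted p below 0.01 and a fold above 1.5, and differences of responses without the fold limit. The study's own tool, DESeq2 1.42.0, limma 3.58.1 with 1 or 0.1 added to TPM before taking log2, other size factors, no filter, a replicate term and leaving out each library were the alternatives. Fits were tested on simulated data with 100 changed genes per fold. Of 2-fold changes, edgeR called 67 for −E−N in FCS/LIF, 63 in 2i/LIF and 49 for the medium difference. Of 4-fold changes it called 94, 92 and 69, so a real change, a 2-fold one above all, can go uncalled. Quoted CPM share 1 TMM scale over 20 libraries, while fold changes come from the fits within a medium, so ratios of CPM can differ slightly from them. The study's figure legends call the replicates of both media separate experiments. Replicates of every group differed by more than sampling noise. Weak genes rest on few reads, which limits their precision.

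The 8 markers were fixed by name. From each of 12 other lists, up to 3 called genes in each direction, by size of the −E−N change, could be named. For each marker the 2 most alike genes were named. The members and lists were chosen with earlier results of these data known.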

Additional observations from a re-analysis of the deposited data

Results flagged for a closer look

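Dab2 was flagged because its response to the loss of both factors differed between the media in a test of the difference itself. The −E−N response in 2i/LIF minus that in FCS/LIF was −2.25 on the log2 scale (SE 0.45, adjusted p = 0.00157, edgeR). In FCS/LIF all −E−N libraries of Dab2 lay above all controls (37.6 and 38.9 against 11.6 and 13.8 CPM), and in 2i/LIF they overlapped with the controls (0.888 to 1.76 against 0.818 to 3.08 CPM). The medium and the set of cultures cannot be told apart. The groups of 2 or 3 libraries are too small to screen for single outlying libraries.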

How the results depend on the processing

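Of the 16 counts of called markers, those for −E in either medium and for additivity in 2i/LIF did not move by over 1.5 times under any edgeR, DESeq2 or limma setting or left-out library. All alternatives but the DESeq2 size factors moved some other count. DESeq2 called 2 markers in −E−N in FCS/LIF, 1 in −N and 2 in −E−N against −E in 2i/LIF, and 1 for the medium difference of the −N response. With no filter the counts were 1 in −N, 2 in −E−N, 2 in −E−N against −E and 1 for the departure from additivity in FCS/LIF, 1 in −N and 2 in −E−N against −E in 2i/LIF, and 1 and 2 for the medium differences of the −N and −E−N responses. limma on log2(TPM + 1) gave 1 in −E−N against −N and 0 in −E−N against −E in FCS/LIF, 0 in −E−N and 0 in −E−N against −E in 2i/LIF, and 1 for the medium difference of the −E response, and log2(TPM + 0.1) gave 1, 0 and 1 for the first 3 of these. Under limma on log2(TPM + 1), these uncalled log2 values changed sign: Pdgfra in −E (0.015) and Gata4 in −E−N (0.134) in FCS/LIF, the departure of Dab2 in 2i/LIF (−0.158), and the medium differences of Gata4 (0.069), Gata6 (0.132) and Sox7 (0.110) for −N and of Gata6 (0.259), Sox7 (0.039), Pdgfra (−0.154), Amn (0.103) and Cubn (−0.330) for −E−N. The cause was not tested. That setting moved the median of all genes by 0.127 in −E−N in FCS/LIF.

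Leaving out 1 library at a time, counts ranged from 1 to 2 in −E−N, 1 to 3 in −E−N against −N and 0 to 1 in −E−N against −E in FCS/LIF, 0 to 1 in −N, 0 to 2 in −E−N and 1 to 2 in −E−N against −E in 2i/LIF, 4 to 8 between the media in +E+N, and 0 to 1 and 0 to 2 for the medium differences of the −N and −E−N responses. Uncalled log2 changes that crossed 0 were, in FCS/LIF, Gata6 (−0.713 to 0.145), Sox7 (−0.194 to 0.235) and Pdgfra (−0.107 to 0.060) in −E, Dab2 in −N (−0.120 to 0.121), Gata4 in −E−N (−0.246 to 0.157) and the departures of Gata6 (−0.331 to 0.527) and Sox7 (−0.010 to 0.500). In 2i/LIF they were Gata4 (−0.625 to 0.063) and Sox17 (−0.006 to 1.169) in −E, Sox17 in −N (−0.039 to 1.189) and the departure of Gata4 (−0.594 to 0.101). Among medium differences they were Gata6 (−1.282 to 0.105) and Sox17 (−0.462 to 0.707) for −E, Sox7 (−2.504 to 1.071) for −N, and Gata6 (−0.759 to 0.616), Sox7 (−0.620 to 1.667) and Amn (−0.923 to 0.365) for −E−N.

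Replicate numbers are shared between states, but nothing in the labels says that they pair the cultures. With a replicate block, the counts were 2 in −E−N in FCS/LIF, 1 in −N, 2 in −E−N against −N and 3 in −E−N against −E in 2i/LIF, and 2 for the medium difference of the −E−N response, where the value of Sox7 was 0.004. The deviations of same-numbered libraries from their group means correlated at 0.083 to 0.563 in FCS/LIF and at 0.021 to 0.700 in 2i/LIF, where the means over pairs of states were 0.299 to 0.516 for same-numbered and −0.246 to −0.156 for other libraries. In FCS/LIF 8 of 8 libraries, and in 2i/LIF 10 of 12, were most like their own number, a hint from the data and not from the design. With 2 libraries per state in FCS/LIF, their deviations mirror each other, so both must give the same answer. In 2i/LIF, centring on the group mean likewise pushes other-numbered correlations below 0 where same-numbered ones lie above it. Those negative values are therefore no separate evidence. The fits without the block were kept, since 1 pair in 2i/LIF stayed under 0.1, as did +E+N with −E in FCS/LIF (0.083). With the block, 305 in place of 27 genes were called for −N in FCS/LIF. For −E in 2i/LIF it called 596 in place of 223, so which genes stay uncalled depends on this choice.

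Over all genes, counts of calls also moved by over 1.5 times under settings that kept all libraries: in FCS/LIF from 901 to between 553 and 1631 for −E, from 27 to between 7 and 548 for −N, from 1573 to up to 2556 for −E−N against −N, from 790 to between 467 and 1571 for −E−N against −E and from 5 to between 2 and 242 for additivity. In 2i/LIF the ranges were 136 to 596 around 223 for −E, 309 to 1115 around 524 for −N, up to 1622 from 970 for −E−N against −N and 7 to 324 around 44 for additivity. For the medium differences they reached 728 from 171 (−E), 56 to 809 around 120 (−N) and 3703 from 2136 (−E−N). Depth limits Gata6, Sox7, Amn and Cubn in 2i/LIF, which were fitted there, between states, only without the filter.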
